A study of Mus musculus with 12 samples.

Results

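H3K27me3 was compared between neural progenitor cells (NPCs) and tSBE(6+2)-Vp64 embryonic stem cells (ESCs), the populations hybridised as separate arrays on slide 2 of a custom tiling array. Members were chosen by array title and slide, not by any measured value: NPC R1 and R2 against tSBE(6+2)-Vp64 R1 and R2, 4 arrays of the 12 in the series. Both populations descend from 46c, a male mouse ESC line with GFP inserted at Sox1. The NPCs were untransfected cells obtained by differentiation in N2B27, and the labels give neither the day of differentiation nor a sort on Sox1-GFP. The tSBE(6+2)-Vp64 cells were undifferentiated ESCs in GMEM, transfected by Lipofectamine with activators made of a TALE DNA-binding domain and Vp64, directed at SBE6 and SBE2, a pair of distant brain enhancers of Shh; the study describes sorting of such cells on eGFP 24 h after transfection. Cell state, medium and transfection therefore differ together between the populations and cannot be told apart, and the labels do not say whether R1 and R2 of either population came from separate cultures. The other 8 arrays, on slide 1, hold ESCs with eGFP, tShh-Vp64, tSBE6-Vp64 or tSBE2-Vp64. They served here to measure the spread between ESC populations, to give ranges at some genes, and in an alternative contrast.

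H3K27me3 is deposited by Polycomb repressive complex 2 and accompanies silencing of developmental genes. In ESCs it covers the CpG-rich promoters of many lineage regulators, often together with active marks, and during neural differentiation it is lost from genes that come into use and acquired by genes of the pluripotent state or of other lineages. The array tiles 39 loci, among them the Shh regulatory region, the Hoxd cluster, Npas3, pluripotency genes, neural patterning genes and the imprinted Igf2-H19 domain, with 48316 probes of 60 bases outside control spots at a median step of 60 bp. No RNA was measured, so cell identity was described only through the mark at marker genes.

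Promoters among those at which the populations differed most, 3 higher and 2 lower in NPCs, are shown by the 250 bases before the annotated start site, read 5′ to 3′ on the strand of the gene from the mouse genome build mm9, with CG dinucleotides, the sites of DNA methylation, in capitals. Pou5f1 and Nanog encode core pluripotency factors, Bmp4 a secreted ligand of the BMP pathway, Nes the neural progenitor filament nestin and Npas3 a neuronal bHLH-PAS transcription factor.
Pou5f1, chr17:35642732-35642981, strand +: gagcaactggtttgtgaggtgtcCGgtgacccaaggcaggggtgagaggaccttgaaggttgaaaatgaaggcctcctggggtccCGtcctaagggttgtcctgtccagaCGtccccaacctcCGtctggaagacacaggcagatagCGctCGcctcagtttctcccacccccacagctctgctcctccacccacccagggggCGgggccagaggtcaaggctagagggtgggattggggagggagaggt
Nanog, chr6:122657257-122657506, strand +: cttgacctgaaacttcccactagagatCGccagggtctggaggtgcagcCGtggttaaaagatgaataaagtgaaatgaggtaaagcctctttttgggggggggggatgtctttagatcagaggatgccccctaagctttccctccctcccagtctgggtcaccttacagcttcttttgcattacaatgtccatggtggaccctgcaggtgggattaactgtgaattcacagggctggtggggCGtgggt
Bmp4, chr14:47010345-47010594, strand -: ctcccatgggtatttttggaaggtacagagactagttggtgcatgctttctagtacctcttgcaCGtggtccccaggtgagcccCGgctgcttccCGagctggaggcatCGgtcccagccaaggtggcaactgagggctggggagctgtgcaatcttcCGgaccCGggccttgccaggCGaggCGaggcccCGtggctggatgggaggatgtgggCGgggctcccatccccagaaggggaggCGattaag
Nes, chr3:87774750-87774999, strand +: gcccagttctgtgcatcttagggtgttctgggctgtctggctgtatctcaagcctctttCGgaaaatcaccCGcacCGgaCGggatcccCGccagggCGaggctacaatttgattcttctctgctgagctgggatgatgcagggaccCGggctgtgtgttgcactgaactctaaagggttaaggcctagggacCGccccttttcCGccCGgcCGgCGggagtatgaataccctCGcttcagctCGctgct
Npas3, chr12:54349414-54349663, strand +: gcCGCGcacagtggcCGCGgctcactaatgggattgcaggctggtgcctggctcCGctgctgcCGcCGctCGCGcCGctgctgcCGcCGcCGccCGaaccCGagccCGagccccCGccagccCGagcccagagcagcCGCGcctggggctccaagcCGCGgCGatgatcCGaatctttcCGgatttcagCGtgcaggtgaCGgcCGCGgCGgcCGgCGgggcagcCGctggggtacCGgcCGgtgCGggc
The CG dinucleotide occurs 7 times before Pou5f1, 3 times before Nanog, 11 times before Bmp4, 14 times before Nes and 36 times before Npas3. Over the 81 promoters read on the array it occurs 1 to 40 times in this stretch, with a median of 13. Promoters that differed thus ranged from among the poorest in CG to among the richest.

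Values below are log2 ratios of the processed signal in the Cy5 scan over that in the Cy3 scan, centred on the median of each array and called the Cy5/Cy3 ratio. The direction is not settled: the labels assign Cy3 to ChIP DNA and Cy5 to input, and the deposited table of combined ratios is headed Cy3 over Cy5, yet its NPC and tSBE(6+2)-Vp64 values correlate across probes at 0.942 and 0.899 with log2 Cy5/Cy3. The direction of the deposited values was followed, in which a high ratio stands for more H3K27me3. This opposes the dye labels, and if those are right each difference changes sign, so that the 238 tiles given below as higher in NPCs would be lower. On this scale the promoters of Gapdh and Actb lay between -0.75 and -0.35 on all 4 arrays, while those of the Hoxd cluster lay between 1.25 and 3.83.

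Replicate arrays were close and the populations were not. Averaged over 5 kb tiles, arrays R1 and R2 correlated at 0.994 for NPCs and 0.987 for tSBE(6+2)-Vp64 ESCs, and arrays of different populations at 0.786 to 0.791. The median absolute difference between R1 and R2 was 0.072 in NPCs and 0.081 in ESCs, against 0.320 between the population means. The spread of ratios over probes was wider in NPCs, with a standard deviation of 1.38 to 1.41 against 1.19 to 1.24 in tSBE(6+2)-Vp64 ESCs and 0.893 to 1.08 on slide 1. In the Cy3 scan 58.2% and 73.8% of probes exceeded background on the tSBE(6+2)-Vp64 arrays, against 77.1% and 82.7% on the NPC arrays. The part of these differences in the results was not tested.

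Across the array more of the tiled sequence was higher in NPCs than lower. Of 963 tiles, 333 passed the test (34.6%), of which 238 had a higher ratio in NPCs (24.7% of all tiles) and 95 a lower ratio (9.87%) by limma at a Benjamini-Hochberg adjusted p of 0.05. In this fit each population is 1 sample, the average of its 2 arrays, slide is a term, and the error comes from the 4 ESC populations of slide 1, which both slide 2 populations are assumed to resemble. Both NPC arrays lay above both ESC arrays in 493 tiles (51.2%) and below them in 329 (34.2%). The split depended on scaling: higher tiles made up 71.5% of the calls here, 45.3% with the deposited ratios (182 higher and 220 lower) and 50.3% after quantile normalization of the 4 arrays (151 higher and 149 lower), which move the median tile by -0.19 and -0.13.

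**Figure D1:**
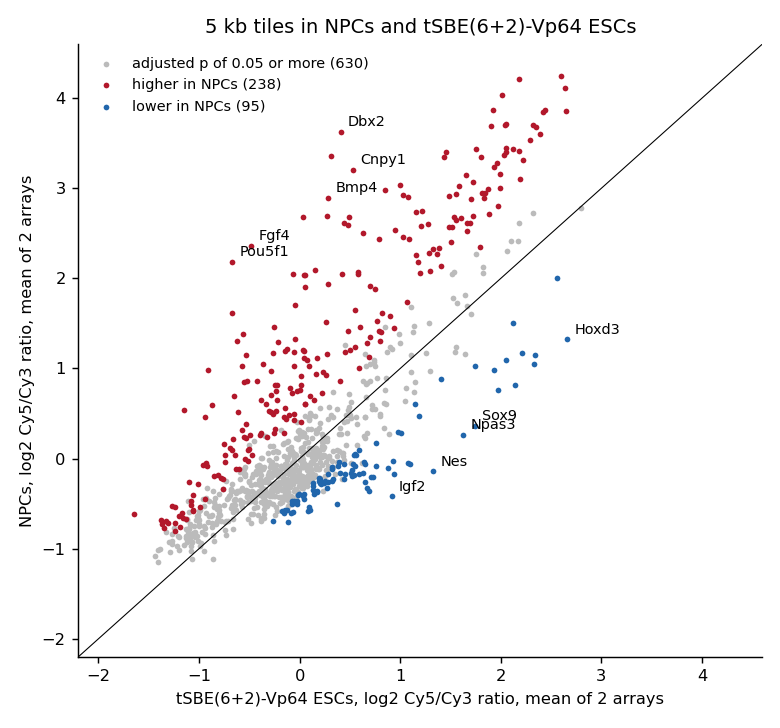
Log2 Cy5/Cy3 ratio of each 5 kb tile in tSBE(6+2)-Vp64 ESCs (horizontal axis) and NPCs (vertical axis), each the mean of 2 arrays; red tiles were higher and blue tiles lower in NPCs at an adjusted p of 0.05, the line marks equal values, and the 10 named tiles carry the nearest gene. The 238 higher tiles include a group at Dbx2, Cnpy1, Bmp4, Fgf4 and Pou5f1 that lay far above the line, and the 95 lower tiles include Hoxd3, Sox9, Npas3, Nes and Igf2.

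The tile furthest up lay in an intron of Dbx2, a homeobox gene of interneuron progenitors (chr15:95475000-95479999), with ratios of 3.65 and 3.61 on the NPC arrays and 0.30 and 0.51 on the ESC arrays, a difference of 3.22 (SE 0.20, adjusted p = 8.97e-06). Tiles at Pou5f1, at Fgf4, in the midbrain-hindbrain gene Cnpy1 and at Bmp4 followed, with differences of 2.85, 2.85, 2.67 and 2.61. The tile furthest down covered exons of Nes (chr3:87780000-87784999), at -0.15 and -0.13 in NPCs and 1.33 and 1.33 in ESCs, a difference of -1.47 (SE 0.26, adjusted p = 0.0024). Tiles at Sox9, in Npas3, at Hoxd3 and between H19 and Igf2 followed at -1.38, -1.36, -1.34 and -1.33. These 10 tiles were named for large differences among called tiles whose NPC and ESC arrays do not overlap, so the gap follows from the choice. All 10 kept their call under all 20 alternatives run on the same tiles.

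By annotation, higher tiles outnumbered lower ones except in introns. Of 76 tiles that hold a start site, 38 were higher (50%) and 10 lower (13.2%), beside 24.7% and 9.87% over all tiles. Among 211 exonic tiles 64 were higher (30.3%) and 15 lower (7.11%). Among 382 intronic tiles 39 were higher (10.2%) and 45 lower (11.8%, near the share over all tiles). This intronic count includes tiles of the Npas3 locus, in which 31 tiles were lower. Among 294 intergenic tiles 97 were higher (33.0%) and 25 lower (8.50%). By level, 72 of the 105 tiles with a ratio of 1 or more in both populations were higher (68.6%) and 8 lower (7.62%). In NPCs alone 61 tiles reached 1 from a ratio of 0 to 1 in ESCs, and 18 from below 0. In ESCs alone 15 tiles reached 1 that stood between 0 and 1 in NPCs, and 3 that stood below 0. Among the 761 tiles below 1 in both populations 100 were higher (13.1%) and 75 lower (9.86%). Higher tiles formed 88 stretches, up to 80 kb long at the 5′ side of Hoxd, and 49 of these held 2 or more tiles. Lower tiles formed 45, up to 55 kb long between H19 and Igf2, and 24 of these held 2 or more tiles. The rest were single tiles.

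Taking whole loci, the mean ratio was higher on both NPC arrays in 28 of 39 loci and lower on both in 11. The Dbx2 locus rose furthest, at 2.75 and 2.73 in NPCs against 0.45 and 0.50 in ESCs. Bmp4 (2.70 and 2.59 against 0.41 and 0.39), Pou5f1 (1.25 and 1.30 against -0.75 and -0.71) and Foxa2 (3.54 and 3.39 against 1.72 and 1.75) came next. The Nes locus was the lowest in this order, at -0.13 and -0.11 in NPCs against 1.00 and 0.99 in ESCs, followed by Sox9 (0.78 and 0.70 against 1.46 and 1.43) and Sox4 (-0.11 and -0.07 against 0.43 and 0.57). Differences over the other loci ran from -0.56 at Igf2 to 1.62 at Nkx6-2. Locus means were not tested.

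**Figure D2:**
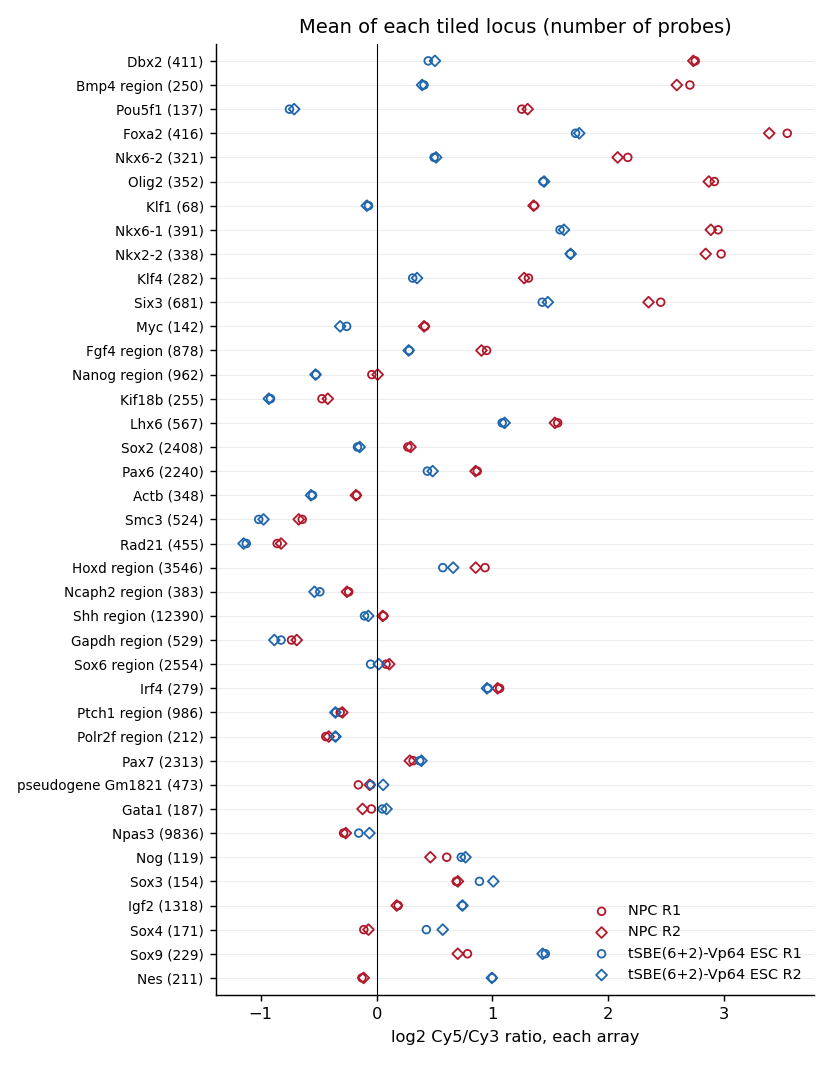
Mean log2 Cy5/Cy3 ratio over all probes of each of the 39 tiled loci, with the number of probes in brackets, for NPC (red) and tSBE(6+2)-Vp64 ESC (blue) arrays R1 (circles) and R2 (diamonds), ordered by the difference. Red symbols lie to the right of blue symbols in 28 loci from Dbx2 to the Ptch1 region, and to the left in 11 from the Polr2f region to Nes.

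Within loci the called tiles often ran in 1 direction, beside 24.7% higher and 9.87% lower over all tiles. In the loci of Dbx2, Olig2, Nkx2-2, Foxa2, Bmp4, Nkx6-2, Pou5f1 and Klf1 every tile was higher (8 of 8, 7 of 7, 7 of 7, 8 of 8, 5 of 5, 5 of 5, 3 of 3 and 2 of 2). In the Nes locus all 4 tiles were lower, and in the Sox9 locus 3 of 5. Higher and lower tiles occurred together in 9 loci, among them Hoxd with 31 higher and 10 lower of 75, Pax7 with 3 and 6 of 45, and Igf2 with 2 and 15 of 21. No tile passed in 6 loci, which include those of Gapdh, Gata1, Sox3 and Nog.

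Promoters, read as the mean of all probes within 2.5 kb of the start site, were more often higher in NPCs than lower. Of 81 windows 46 passed the test (56.8%), 38 of them higher in NPCs (46.9%) and 8 lower (9.88%). The median difference over all windows was 0.46, and its size depended on scaling. It was 0.14 with the deposited ratios and 0.13 after quantile normalization. Both NPC arrays lay above both ESC arrays in 58 windows (71.6%) and below them in 16 (19.8%). The error of the difference was 0.24 at every window, since limma's moderation gave all of them 1 pooled spread. Pairs of neighbouring start sites such as Sox9 and BC006965, or Shh and Gm17493, share 95.2% and 87.3% of the probes of the smaller window and are not independent.

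Rises from an already high ratio were mostly lost after quantile normalization, and rises from a low one less often. Of the 46 calls over all windows 25 stayed after quantile normalization. Loess and scale normalization kept 44 of them and the deposited ratios 43. Of 40 windows at 1 or more in ESCs, 24 were higher in NPCs, and 4 remained so after quantile normalization. Of 17 windows between 0 and 1 in ESCs 8 were higher before and 8 after it, and of 24 windows below 0 in ESCs 6 were higher before and 5 after. Over all windows 17 were then higher and 12 lower, so that the higher share of calls was 58.6% in place of 82.6%. Quantile normalization was chosen after the data were seen, and moves the median window by -0.33.

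**Figure D3:**
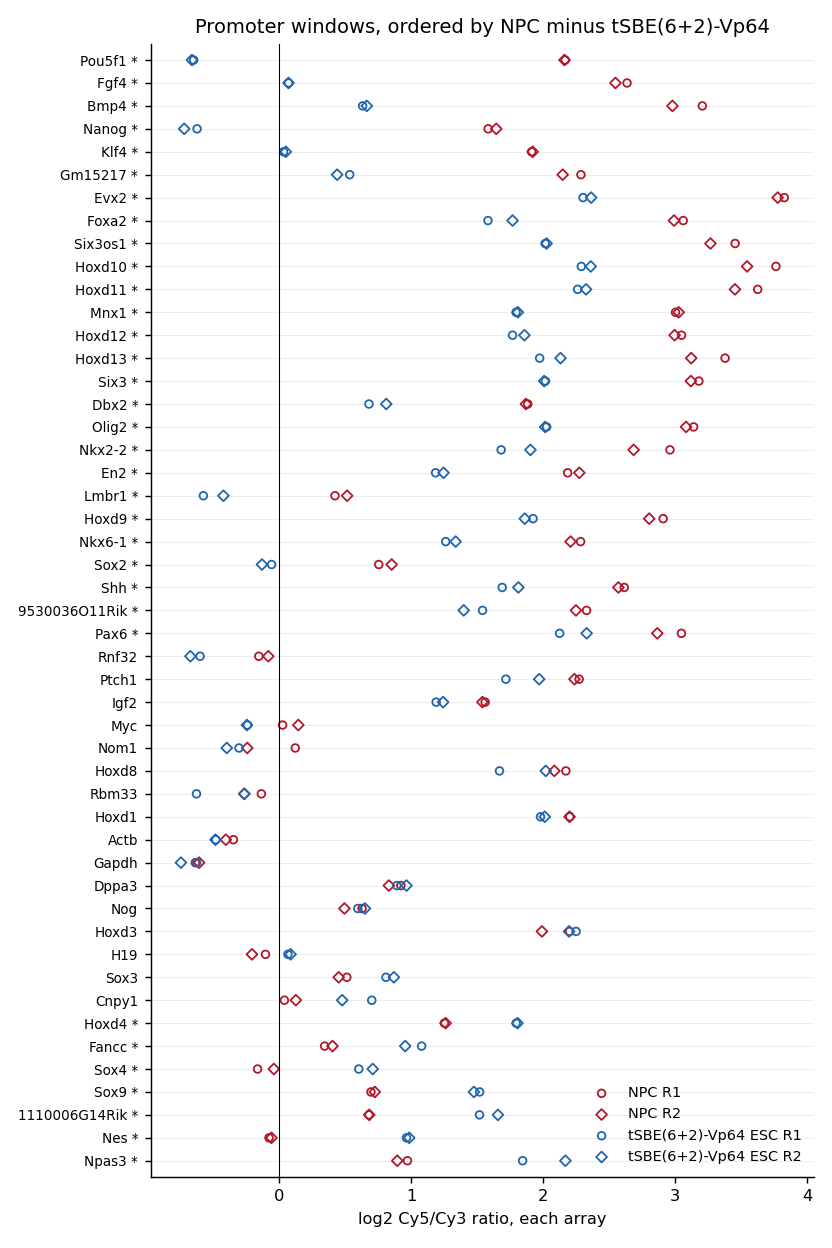
Log2 Cy5/Cy3 ratio within 2.5 kb of the start site of 49 genes on NPC (red) and tSBE(6+2)-Vp64 ESC (blue) arrays R1 (circles) and R2 (diamonds), ordered by the difference; an asterisk marks an adjusted p under 0.05. Pou5f1 and Nanog changed from below 0 to above 1.5, and Nes from about 1 to just below 0.

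Pluripotency genes held 4 of the 5 largest rises among promoter windows, the other being Bmp4. Of 16 genes in the pluripotency list 7 had a start site on the array, and 5 were higher in NPCs and none lower, beside 46.9% higher and 9.88% lower over all windows, with a median difference of 1.87 against 0.46. At Pou5f1, which encodes OCT4 (chr17, start site 35642982), the ratio was 2.17 and 2.16 in NPCs and -0.65 and -0.66 in ESCs, a difference of 2.82 that amounts to a 7.06-fold change of the ratio (adjusted p = 7.35e-24). The slide 1 ESC populations lay between -0.64 and -0.50, so all ESC populations were below 0 and both NPC arrays stood above 2.

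At Nanog (chr6, start site 122657507) the NPC arrays read 1.58 and 1.64 and the ESC arrays -0.62 and -0.72, a difference of 2.28 (adjusted p = 2.44e-17). Fgf4, an autocrine growth factor of ESCs, stood at 2.63 and 2.55 in NPCs against 0.07 and 0.07 (difference 2.52, adjusted p = 4.02e-20). Klf4, a reprogramming factor, stood at 1.91 and 1.92 against 0.03 and 0.05 (difference 1.87, adjusted p = 2.03e-12). At these 4 genes the ESC ratio was below the array median (Pou5f1 and Nanog) or within 0.1 above it (Fgf4 and Klf4), and the NPC ratio was at least 1.58.

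Sox2, which is used in ESCs and in neural progenitors alike, moved less: 0.75 and 0.85 in NPCs against -0.06 and -0.13 (difference 0.90, adjusted p = 0.000518). In the Sox2 locus 19 of 51 tiles were higher (37.3%, against 24.7% of all tiles) and 1 lower (1.96%, against 9.87%), including a stretch of 25 kb over the gene (mean 1.24 in NPCs and 0.17 in ESCs) and another of 25 kb in introns of the overlapping transcript Sox2ot (1.13 and -0.30). The start site of Myc, at 0.02 and 0.14 against -0.24 and -0.25, did not pass (limma adjusted p = 0.242). In the Myc locus, though, 3 of 4 tiles were higher (75%, against 24.7% of all tiles). Of these, 2 neighbours at the 3′ end of Myc and beyond stood at 0.92 in NPCs and -0.41 in ESCs. The germline and ESC gene Dppa3, at 0.92 and 0.83 against 0.89 and 0.96, did not pass (limma adjusted p = 0.829).

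**Figure D4:**
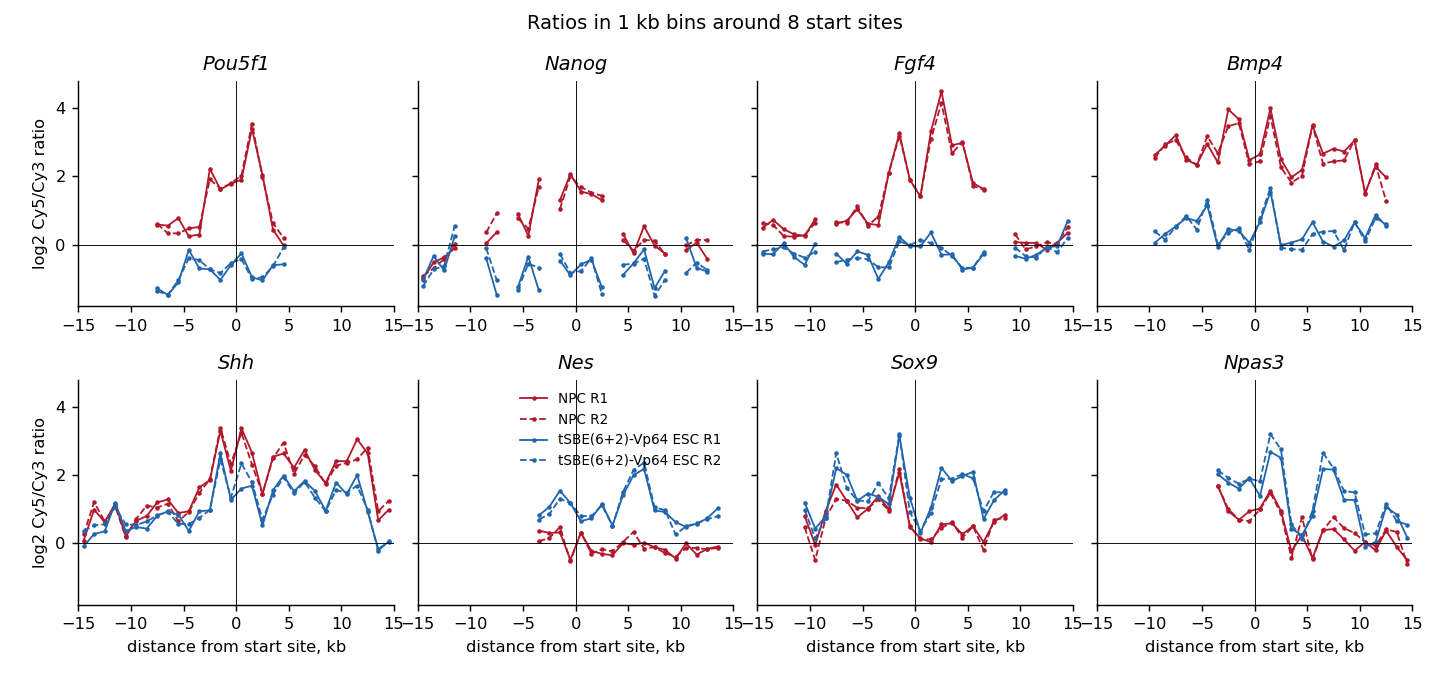
Log2 Cy5/Cy3 ratio in 1 kb bins with at least 3 probes, from 15 kb before to 15 kb after the start site in the direction of transcription, for NPC (red) and tSBE(6+2)-Vp64 ESC (blue) arrays R1 (solid) and R2 (dashed); gaps are sequence without probes. The red lines lie above the blue lines in every bin at Pou5f1 and Bmp4 and in most bins at Fgf4, Nanog and Shh, and below them in every bin at Nes and in most at Sox9 and Npas3.

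Neural progenitor genes moved in both directions. Of 23 genes in the neural progenitor and patterning list 14 were on the array: 8 were higher in NPCs (57.1%, near the 46.9% over all windows), 4 lower (28.6%, against 9.88%), and 2 (Sox3 and Cnpy1) did not pass. The 4 lower genes were Npas3, Nes, Sox9, a regulator of neural stem cells and glia, and Sox4, a SoxC factor of early neurons. These are 4 of the 8 lower windows on the whole array.

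At Nes (chr3, start site 87775000) the ratio was -0.08 and -0.06 in NPCs against 0.96 and 0.98 in ESCs, a difference of -1.04 (adjusted p = 5.72e-05), and the slide 1 populations lay between 0.68 and 0.93. Npas3 (chr12, start site 54349664) stood at 0.97 and 0.89 against 1.84 and 2.17 (difference -1.07, adjusted p = 3.56e-05). Sox9 stood at 0.69 and 0.72 against 1.52 and 1.47 (difference -0.79, adjusted p = 0.00231), and Sox4 at -0.17 and -0.04 against 0.60 and 0.71 (difference -0.76, adjusted p = 0.0034). The ratio thus came close to the array median at Nes and Sox4, while Sox9 and Npas3 remained above it.

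Lower tiles also lay further into Npas3, which is tiled over 837 kb of chromosome 12. Of 168 tiles in this locus 31 were lower (18.5%, against 9.87% of all tiles) and 2 higher (1.19%, against 24.7%). The deepest lay in an intron near the start site, at -1.36. Another deep one lay in an intron towards the 3′ end of the gene, at -1.15, within a stretch of 4 lower tiles. In 162 of the 168 tiles the ratio was below 1 in both populations. A stretch of 3 lower tiles (chr12:54395000-54409999), for example, stood at -0.60 in NPCs and 0.11 in ESCs, close to the array median in ESCs.

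The 8 higher genes of the list were homeobox and other regulators of regional identity: Foxa2 of the floor plate, Nkx2-2, Nkx6-1, Olig2 and Dbx2 of the ventral neural tube, Six3 and Pax6 of the forebrain and eye, and En2 of the midbrain-hindbrain. Foxa2 stood at 3.06 and 2.99 in NPCs against 1.58 and 1.77 in ESCs (difference 1.35, adjusted p = 4.2e-07). Olig2 stood at 3.14 and 3.08 against 2.02 and 2.01 (difference 1.09, adjusted p = 2.83e-05). All but Dbx2 were already above 1 on both ESC arrays. After quantile normalization the 6 genes Six3, Olig2, Nkx2-2, Nkx6-1, En2 and Pax6 did not pass, and Pax6 turned to -0.04. Foxa2 and Dbx2 still passed. The paper states, citing earlier work, that Six3 expression rises when ESCs become NPCs.

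At Dbx2 the promoter window understated the change of the locus. It stood at 1.88 and 1.87 in NPCs against 0.68 and 0.81 in ESCs (difference 1.13), while the intronic tile named above differed by 3.22. Six3os1, an antisense transcript beside Six3, rose by 1.34, and Nkx6-2, a homeobox gene of the same ventral class that was in no list, rose by 1.31, from 1.34 and 1.33 to 2.70 and 2.59.

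In BMP signalling 2 of 8 listed genes were on the array. The ligand Bmp4 (chr14, start site 47010344) rose from 0.63 and 0.66 in ESCs to 3.20 and 2.98 in NPCs, a difference of 2.44 (adjusted p = 2.74e-19), and Gm15217 beside it rose by 1.73. The rise covered the entire tiled stretch of 24 kb, of which 2 kb reached a ratio of 1 in ESCs. The antagonist Nog stood at 0.63 and 0.49 against 0.59 and 0.65 and did not pass (adjusted p = 0.806).

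The Hoxd cluster changed in opposite directions in its 5′ and 3′ parts. Hoxd genes encode homeodomain factors that pattern the trunk and limbs, and genes at the 5′ end of the cluster act more posteriorly. All 10 listed genes were on the array: Evx2, Hoxd13, Hoxd12, Hoxd11, Hoxd10 and Hoxd9 were higher in NPCs, Hoxd4 was lower, and Hoxd8, Hoxd3 and Hoxd1 did not pass. These counts, 60.0% higher and 10.0% lower, lie near the 46.9% and 9.88% over all windows. Evx2 stood at 3.83 and 3.78 in NPCs against 2.30 and 2.36 in ESCs (difference 1.47, adjusted p = 3.48e-08), and Hoxd10 at 3.76 and 3.54 against 2.29 and 2.36 (difference 1.33, adjusted p = 5.32e-07).

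In order of their start sites from Hoxd13 to Hoxd9 the other higher genes differed by 0.96 to 1.33. Hoxd8 differed by 0.28, Hoxd3 by -0.13, Hoxd4 by -0.54 and Hoxd1 by 0.20. Hoxd4 stood at 1.25 and 1.26 in NPCs against 1.79 and 1.80 in ESCs (adjusted p = 0.0421), and passed in 14 of 20 alternatives on the same windows, not without the tShh-Vp64, tSBE6-Vp64 or tSBE2-Vp64 population in the spread. With the exception of Evx2, the higher genes of the cluster did not pass after quantile normalization, although their differences stayed above 0, whereas Hoxd3 then passed as lower and Hoxd8 and Hoxd1 turned to -0.26 and -0.43.

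Tiles drew the boundary more sharply than start sites did. A stretch of 16 neighbouring higher tiles ran over 80 kb from the intergenic sequence beside Evx2 to Hoxd9 (chr2:74460000-74539999), with mean ratios of 2.78 in NPCs and 1.56 in ESCs. After a gap of 20 kb with no call, 8 neighbouring lower tiles ran over 40 kb from Hoxd4 through Hoxd3 to just before Hoxd1 (chr2:74560000-74599999), with a mean ratio of 2.28 in ESCs and differences of -1.34 to -0.55.

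**Figure D5:**
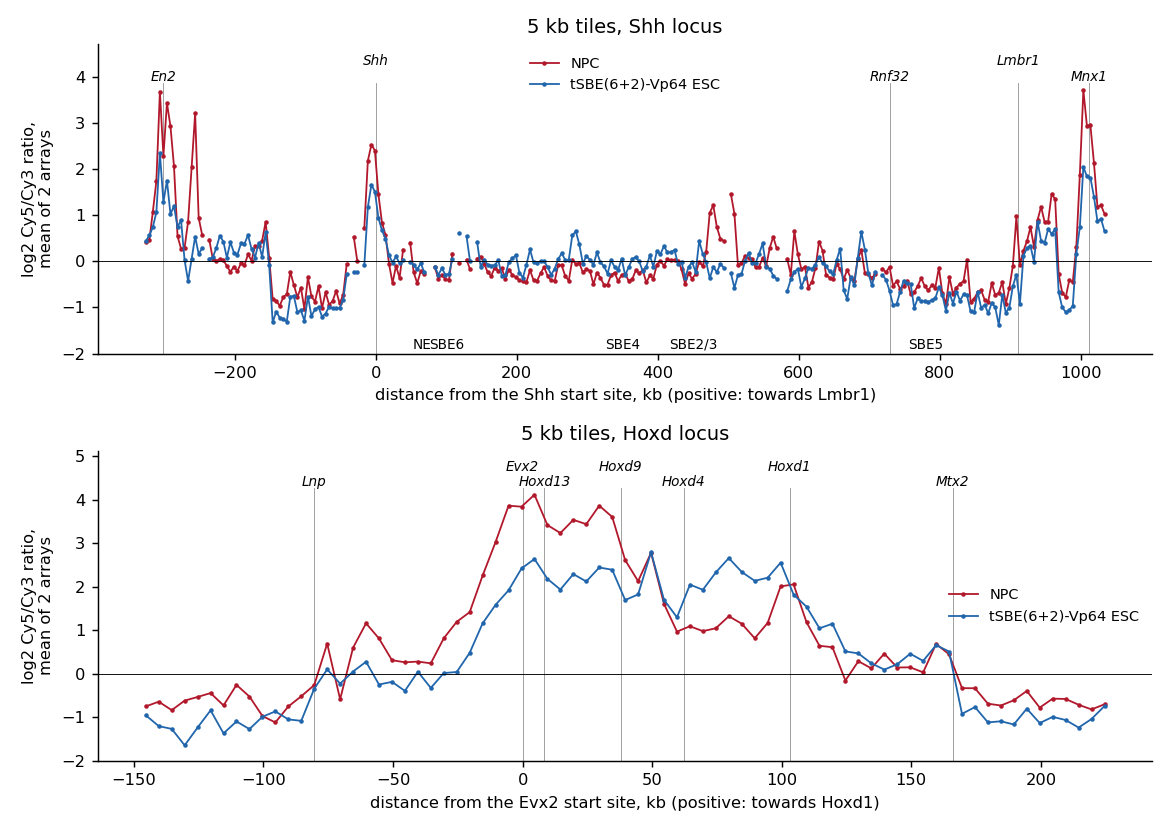
Log2 Cy5/Cy3 ratio of 5 kb tiles (mean of 2 arrays) in NPCs (red) and tSBE(6+2)-Vp64 ESCs (blue) against the distance in kb from the Shh start site (upper panel) and the Evx2 start site (lower panel); vertical lines mark start sites, and labels at the foot of the upper panel mark Shh brain enhancers and the NE site. In the Shh locus the lines part at En2, Cnpy1, Shh, Mnx1 and in the desert beyond SBE2/3, and in the Hoxd locus NPCs lie above ESCs up to Hoxd9 and below them from Hoxd4 to Hoxd1.

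In the imprinted Igf2-H19 domain a fetal growth factor gene and a non-coding RNA gene are expressed from opposite parental chromosomes. Its longest stretch of called tiles lay between these genes. Neither promoter window passed. Igf2 stood at 1.56 and 1.54 in NPCs against 1.19 and 1.24 in ESCs (limma adjusted p = 0.235). H19 stood at -0.11 and -0.21 against 0.07 and 0.08 (limma adjusted p = 0.428). Between them 11 neighbouring tiles were lower over 55 kb (chr7:149770000-149824999), with mean ratios of -0.22 in NPCs and 0.68 in ESCs. Called tiles also lay at the genes. At H19 2 tiles were lower (chr7:149755000-149764999, -0.63 to -0.54), and 1 beside them was higher by 0.41. At Igf2 2 tiles were lower (chr7:149830000-149839999, -0.72 to -0.68), and 1 (chr7:149845000-149849999) was higher by 0.83.

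In the Shh locus, with 12390 probes the largest on the array, 51 of 260 tiles were higher (19.6%) and 17 lower (6.54%), against 24.7% and 9.87% over all loci. Shh encodes sonic hedgehog, a ligand that ventralises the neural tube. Its promoter stood at 2.61 and 2.57 in NPCs and 1.69 and 1.81 in tSBE(6+2)-Vp64 ESCs, a difference of 0.84 (adjusted p = 0.0011), and the slide 1 populations lay between 1.15 and 1.58. The call was lost after quantile normalization, where the difference was 0.27. The paper reports that Shh and 9530036O11Rik are induced as NPCs form, and that VP64 at SBE6 and SBE2 also induces Shh. How the ratio relates to expression was not tested. The hedgehog receptor gene Ptch1, the other of the 11 pathway genes on the array, stood at 2.27 and 2.24 against 1.72 and 1.97 and did not pass (adjusted p = 0.134).

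Of the 6 listed neighbours of Shh, 3 were higher (beside 46.9% over all windows) and 3 did not pass. The motor neuron homeobox gene Mnx1 stood at 3.00 and 3.03 in NPCs against 1.79 and 1.81 in ESCs (difference 1.21, adjusted p = 4.21e-06). Lmbr1, a broadly transcribed gene, stood at 0.42 and 0.51 against -0.58 and -0.42 (difference 0.97, adjusted p = 0.000189), and the long non-coding RNA gene 9530036O11Rik differed by 0.82. After quantile normalization Mnx1 and 9530036O11Rik did not pass, at 0.42 and 0.28. Rnf32, Nom1 and Rbm33 differed by 0.52, 0.29 and 0.25 without passing.

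At Cnpy1 the change lay away from the start site, which did not pass (0.04 and 0.12 in NPCs against 0.70 and 0.48), while the tile over exons near its 3′ end (chr5:28535000-28539999) stood at 3.23 and 3.18 against 0.44 and 0.63, a difference of 2.67 (SE 0.15, adjusted p = 3.65e-06).

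Around the enhancers the ratios were low in both populations. Apart from NE, their positions were set from rounded distances to the Shh start site and are approximate, so that a window may miss its element. Windows of 10 kb either side gave -0.36 and -0.35 in NPCs against -0.22 and -0.22 in ESCs around SBE6, and -0.23 and -0.31 against -0.09 and -0.12 around SBE2/3, the regions that the activators were directed at. SBE4 stood at -0.33 and -0.34 against -0.19 and -0.12, and NE, a non-enhancer site of the study, at -0.36 and -0.29 against -0.11 and -0.12. SBE5 was the exception, at -0.54 and -0.53 in NPCs against -0.86 and -0.80. These windows were not tested. The NPC arrays did not overlap the ESC arrays in any of the 5. Most 5 kb tiles on the array did not overlap either, with NPCs above in 51.2% and below in 34.2%.

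Beyond SBE2/3, in the gene desert past the end of 9530036O11Rik, 5 neighbouring tiles were higher over 25 kb (chr5:29265000-29289999), with mean ratios of 0.79 in NPCs and -0.18 in ESCs. Past it, 2 more neighbouring tiles were higher (chr5:29295000-29304999), with mean ratios of 1.24 in NPCs and -0.42 in ESCs. Both stretches were singled out after their values were seen. The lower tiles of the locus were smaller in size and scattered, between -0.71 and -0.39, and 10 of the 17 lay in introns of 9530036O11Rik.

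Genes of lineages outside the nervous system were in no list, and Klf1, Irf4 and Gata1, like Nkx6-2 above, were singled out after their values were seen. Klf1, an erythroid factor, rose from 0.09 and 0.06 in ESCs to 1.26 and 1.25 in NPCs (difference 1.19, adjusted p = 5.96e-06), and the lymphoid factor Irf4 from 1.52 and 1.56 to 2.60 and 2.57 (difference 1.05, adjusted p = 5.63e-05). After quantile normalization Klf1 still passed and Irf4, at 0.46, did not. Gata1, another erythroid factor, stood at -0.14 and -0.18 in NPCs against 0.07 and -0.11 and did not pass. Among lower windows in no list were 1110006G14Rik inside the Sox6 locus, at 0.68 and 0.68 against 1.52 and 1.66 (difference -0.91, adjusted p = 0.00046), and the DNA repair gene Fancc, at 0.34 and 0.40 against 1.08 and 0.95 (difference -0.64, adjusted p = 0.0141), which passed in 18 of 20 alternatives on the same windows. Of the broadly expressed genes Gapdh and Actb, which stay active in both cell types, neither passed, with differences of 0.06 and 0.11 that turned to -0.11 and -0.14 with the deposited ratios. No tile passed in the Gapdh locus, while 5 of 11 were higher in the Actb locus (45.5%, against 24.7% of all tiles). These 5 lay in intergenic sequence away from Actb, and 4 of them were neighbours (mean 0.18 in NPCs and -0.51 in ESCs).

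In the direction followed here, the enriched sequence was longer in NPCs. Counted as 2 kb tiles with a ratio of at least 1 on both arrays, enriched sequence came to 814 kb in NPCs and 546 kb in tSBE(6+2)-Vp64 ESCs, of 4578 kb read. The shared part was 460 kb, which is 84.2% of the ESC total and 56.5% of the NPC total. With the ratio turned to Cy3 over Cy5, as the dye labels have it, the lengths were 56 kb in NPCs and 268 kb in ESCs, so this order rests on the direction. The longest run was 64 kb in NPCs, from Evx2 to Hoxd9, and 42 kb in ESCs, over Hoxd3 and Hoxd4. At the loci of Foxa2, Nkx2-2, Olig2 and Nkx6-1 the NPC domain (36, 30, 32 and 34 kb) enclosed an ESC domain (32, 24, 22 and 24 kb), whereas at Dbx2, Nkx6-2 and Bmp4 domains of 36, 24 and 24 kb stood where ESCs had 2, 6 and 2 kb. At Sox9 the domain was 4 kb in NPCs and 16 kb in ESCs, and at Nes it was 0 kb against 4 kb.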

How the data were processed

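H3K27me3 was measured by native ChIP on MNase-digested nuclei, with amplified ChIP and input DNA hybridised together. The authors deposited Agilent Feature Extraction 11.5.1.1 spot intensity values for each scan, extracted in single-colour mode with 0 probes used for dye normalization. Per the file headers the strength of multiplicative detrending was 0 for the Cy3 scan of NPC R2 and above 0 for the other slide 2 scans. They also deposited log2 ratios with R1 and R2 combined, for which the labels name limma without settings. The paper's array methods describe other arrays.

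Here, outlier spots were left out (436 to 1066 probes on each slide 2 array) and log2 Cy5/Cy3 of processed signals was centred on the array median, without loess. Probes were averaged over 5 kb tiles (at least 5 probes), windows of 2.5 kb either side of GENCODE start sites in mm9 (at least 10) and 39 loci (split at gaps over 50 kb). Population means entered limma 3.58.1 (lmFit and eBayes with intercept, slide and NPC) in R 4.3.3. The fit was tested on simulated data. It rests on 6 population means, whose number limits the precision.

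Named were the 10 promoters with the largest higher and lower differences (7 lower windows after windows sharing over 50% of their probes were counted once) and 5 tiles each way, all past the threshold with arrays that do not overlap; all listed genes; all loci; and the Shh enhancers. The tests, the rule for naming and the gene lists were set with earlier results of these data known. In the main fit the p-values rest on the spread between the ESC populations of the other slide, which may be technical. Neither of the compared populations adds to that spread. The p-values therefore do not measure variation within NPCs or within the ESCs compared with them.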

Additional observations from a re-analysis of the deposited data

How the results depend on the processing

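Of 33 named promoters that passed, 15 kept the call in every alternative run, and only Pax6 changed sign, whose call was also lost with loess and with the deposited ratios. Main tile counts were 238 higher and 95 lower. Loess and scale normalization gave 48 lower tiles, and the deposited ratios 220. Tiles of 2 kb gave 502 higher and 164 lower of 2289, and tiles of 10 kb gave 63 lower of 501. With arrays as samples there were 400 higher and 245 lower on the 4 slide 2 arrays, 414 and 254 with the replicate number as a block, and 414 and 266 on all 12. The block left promoters at 49 higher and 12 lower, against 51 and 12 without it. R1 minus R2 correlated at 0.055 between the populations, so the numbers were not taken to pair the arrays. Quantile normalization, added after the data were seen, gave 151 higher and 149 lower tiles, 17 higher promoters, and 22 loci in place of 28. Leaving out 1 array gave 237 to 252 higher and 93 to 100 lower tiles, and leaving out 1 slide 1 population 225 to 243 and 76 to 96. Enriched length, main 814 kb in NPCs and 546 kb in ESCs, was 1166 and 968 kb at a ratio of 0.5, 574 and 342 kb at 1.5, 668 and 430 kb with loess, 522 and 348 kb with deposited ratios, 872 and 582 kb centred on the mode, 634 and 382 kb on probes above Cy3 background, 766 and 650 kb after quantile normalization, 56 and 268 kb with the ratio turned (also added after the data were seen), and 838 to 860 and 562 to 588 kb from single arrays. Differences that changed sign were, with deposited ratios, Actb at -0.14, Gapdh at -0.11, Hoxd1 at -0.020, Igf2 at -0.021 and Rbm33 at -0.047. After quantile normalization they were Actb at -0.010, Gapdh at -0.036, Hoxd1 at -0.43, Hoxd8 at -0.26, Igf2 at -0.075, Pax6 at -0.040 and Ptch1 at -0.16. Against the mean of 5 ESC populations, without slide, they were Dppa3 at 0.27, Gapdh at -0.060, Hoxd3 at 0.19 and Nog at 0.075. With probe filters they were Nog at 0.052 (Cy3) and 0.015 (both channels) and Rbm33 at -0.021 and -0.068. With medians over probes they were Hoxd3 at 0.0030 and Nog at 0.010. Windows of 5 kb gave Hoxd1 at -0.071, windows of 1 kb Nom1 at -0.0027, and leaving out 1 array put Nog at -0.13 to 0.0051. Cnpy1 passed without NPC replicate 2, tSBE(6+2)-Vp64 replicate 2 or the eGFP population, Ptch1 without tSBE(6+2)-Vp64 replicate 2 or eGFP, and Rnf32 without replicate 1 of either population or eGFP. The cause of these changes was not tested.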

Other observations

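Further genes outside the lists, chosen after their values were seen, also differed. Lhx6, a homeobox gene of forebrain interneurons, stood at 3.26 and 3.20 in NPCs against 2.01 and 2.00 in ESCs (difference 1.22, limma adjusted p = 3.81e-06), and did not pass after quantile normalization, at 0.49. Odf3b, named for a sperm outer dense fibre protein, stood at 1.82 and 1.80 against 0.70 and 0.76 (difference 1.08, limma adjusted p = 3.3e-05), and the neighbouring thymidine phosphorylase gene Tymp, whose window shares 73.9% of the smaller window's probes with it, at 0.98 and 1.00 against 0.11 and 0.14. Kif18b, a mitotic kinesin gene, stayed below 0 in both populations, at -0.47 and -0.50 against -1.11 and -1.12, although it passed as higher (limma adjusted p = 0.0163, and in 16 of 20 alternatives). Pax7, a paired box gene of dorsal neural tube and muscle, stood at 1.90 and 1.85 against 1.75 and 1.85 and did not pass.

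The start sites of the growth factor genes beside Fgf4 differed less than that of Fgf4. Fgf3 stood at 1.62 and 1.61 in NPCs against 1.25 and 1.27 in ESCs, and Fgf15 at 1.37 and 1.39 against 0.94 and 1.03, and neither passed, while Fgf4 differed by 2.52. Neighbouring tiles at Fgf4 and towards Fgf3 were higher over 25 kb, and 1 tile at Fgf15 was higher by 0.73 (limma adjusted p = 0.00246). The difference between these genes was not tested.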
